A study of Mus musculus with 12 samples.

Results

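The 10 genes described here encode the tubulin and cytoplasmic actin isoforms Tuba1a, Tuba1b, Tuba4a, Tubb2a, Tubb2b, Tubb3, Tubb4a, Tubb5, Actb and Actg1. They were taken by symbol from the 54752 genes of the count table, in a list drawn up with earlier results of these data known, and all 10 passed the filter on low counts in every comparison. RNA-seq of poly(A) RNA was performed on cerebellar cortex from 12 mice. All mice were labelled 12 weeks, with 4 libraries for each of 3 diets. Ad libitum fed mice (AL) had free access to food, mice on dietary restriction (DR) received a smaller portion once a day, and another set is labelled ketogenic diet (KD). The paper describes its AL and DR mice as WT males, F1 hybrid C57BL6J/FVB, with the cortex dissected without the cerebellar nuclei. It does not describe the ketogenic group. AL and DR mice were killed early in the dark period, and DR mice had not received their last meal, so restriction and the missed meal cannot be told apart. The composition, duration and killing time of the ketogenic diet group were not given in the sources used here.

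Microtubules are built from heterodimers of an α-tubulin and a β-tubulin, and each subunit is encoded by several genes whose products, called isotypes, differ mostly in their acidic tails. Neurons use microtubules as the tracks and struts of axons and dendrites, and oligodendrocytes use them to extend myelinating processes. Actb and Actg1 encode the β and γ cytoplasmic actins, which form the filaments of dendritic spines, growth cones and glial endfeet. Cells adjust tubulin mRNA to the pool of free dimers through TTC5, which recognises nascent tubulin on the ribosome, and actin genes to the pool of free actin monomers through the transcription factor SRF and its MRTF coactivators.

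Several of these genes are close copies of each other, which matters for how reads were assigned. The stretches printed here are the last 60 bases of the coding sequence of Tubb2b and Tubb2a, the gene that fell on DR beside its closest paralog, and the first 60 bases for Actb and Actg1. They were read from GRCm38 in coding orientation, and capitals mark the positions at which the pair differs.
Tubb2b, chr13:34127471-34127530 (minus strand): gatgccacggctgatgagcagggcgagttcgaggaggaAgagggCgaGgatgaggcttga
Tubb2a, chr13:34074468-34074527 (minus strand): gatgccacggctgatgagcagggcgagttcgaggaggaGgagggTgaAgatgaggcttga
Actb, chr5:142905627-142905686 (minus strand): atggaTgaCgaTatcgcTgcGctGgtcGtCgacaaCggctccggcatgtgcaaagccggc
Actg1, chr11:120348032-120348091 (minus strand): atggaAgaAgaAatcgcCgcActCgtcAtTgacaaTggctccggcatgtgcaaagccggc
Tubb2b and Tubb2a differed at 3 of these 60 positions, and Actb and Actg1 at 9. Read in frame, the 3 differences between Tubb2b and Tubb2a leave the encoded amino acids unchanged, so this stretch does not separate the 2 proteins. Over the whole coding sequence, identity was 98.3% for Tuba1a with Tuba1b, 96.5% for Tubb2a with Tubb2b and 88.7% for Actb with Actg1. The remaining α pairs, Tuba4a with Tuba1a or Tuba1b, were 85.3% and 85.9% identical, and the other β pairs lay between 82.5% and 84.8%.

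In addition, windows of 150 bases were taken along the transcripts to see where a single read of that length could not name its gene. The paper sequenced read pairs, and the second read of a pair can lie in sequence that is not shared. The percentages are therefore shares of windows, not of read pairs that could not be placed. Of the windows of Tubb2a, 27.9% occurred also in Tubb2b or the pseudogene Tubb2a-ps2, and of those of Tubb2b 20.1% were shared in this way. For Tuba1a and Tuba1b, 54.7% and 57.9% of windows occurred in another gene, and 16.9% and 17.5% in each other. Tuba4a shared 45.7% of its windows with Stk16, the kinase gene whose annotated exons cover 37.3% of the exonic bases of Tuba4a, and Actg1 shared 43.5% with 3 gene models. Tubb3, Tubb4a, Tubb5 and Actb shared none. How multi-mapping and overlapping reads were treated was not given in the sources used here, so the levels of the genes with shared windows are uncertain by an amount that was not tested.

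The upstream sequence is shown for Tuba4a, Tubb5 and Actg1, which were higher on KD than on DR, and for Tubb2a, the paralog of Tubb2b. No promoter was matched to Tubb2b or Actb, so their motifs were not examined, and the motifs before Tubb2a do not describe Tubb2b. Each run is the 250 bases before the RefSeq start in GRCm38.p6, in the direction of transcription. Capitals mark matches on either strand to 6 motifs: the CArG box bound by SRF, the TATA box searched as TATAAA, the CCAAT box, the GC box searched as GGGCGG, the E-box searched as CACGTG, and the cAMP response element, or CRE, searched as TGACGTCA. Adjacent GC boxes before Actg1 overlap each other.
Tuba4a, chr1:75219295-75219544 (minus strand): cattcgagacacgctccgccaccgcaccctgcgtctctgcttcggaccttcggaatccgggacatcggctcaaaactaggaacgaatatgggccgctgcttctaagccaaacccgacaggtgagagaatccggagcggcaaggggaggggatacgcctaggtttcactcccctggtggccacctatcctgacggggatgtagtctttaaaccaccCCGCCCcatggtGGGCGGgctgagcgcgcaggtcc
Tubb5, chr17:35838302-35838551 (minus strand): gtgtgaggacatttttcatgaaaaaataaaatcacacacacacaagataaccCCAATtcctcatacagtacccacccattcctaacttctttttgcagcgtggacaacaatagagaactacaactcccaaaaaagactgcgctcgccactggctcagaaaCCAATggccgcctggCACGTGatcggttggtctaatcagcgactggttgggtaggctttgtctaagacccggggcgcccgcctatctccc
Actg1, chr11:120348496-120348745 (minus strand): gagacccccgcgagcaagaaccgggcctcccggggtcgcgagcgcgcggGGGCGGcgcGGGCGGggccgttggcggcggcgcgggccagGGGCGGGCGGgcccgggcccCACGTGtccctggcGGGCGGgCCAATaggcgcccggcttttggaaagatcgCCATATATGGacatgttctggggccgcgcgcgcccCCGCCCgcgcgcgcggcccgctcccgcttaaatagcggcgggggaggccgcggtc
Tubb2a, chr13:34078009-34078258 (minus strand): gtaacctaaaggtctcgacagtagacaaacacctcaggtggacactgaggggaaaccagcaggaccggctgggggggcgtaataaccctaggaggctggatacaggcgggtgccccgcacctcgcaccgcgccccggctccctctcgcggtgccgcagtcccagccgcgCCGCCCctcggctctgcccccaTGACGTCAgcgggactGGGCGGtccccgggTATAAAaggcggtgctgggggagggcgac
Of these 4, a CArG box stood before Actg1 only, where it reads the same on both strands, and 1.47% of the 32851 RefSeq promoters of this length held one. A CRE stood before Tubb2a, against 1.55% of all promoters, and so did a TATA box, against 12.4%. Tubb5 and Actg1 each had an E-box (6.02% of all promoters) and at least 1 CCAAT box (33.8%). GC boxes, found in 32.7% of all promoters, stood before Tuba4a, Actg1 and Tubb2a as well as Tuba1a, Tuba1b and Tubb3, and the Tubb4a promoter held no match to any of these motifs.

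Sequencing assigned 31712084 to 40798644 reads to genes per library (median 36674269), with overlapping ranges in the 3 diets. For the members, DR replicate 1 stood apart from the other DR mice: it was the highest of its diet for 8 of the 10 genes, with Tuba1a at 365 CPM (read counts scaled by TMM to a common library size) against 278 to 292 in the other 3 mice. This mouse also differed over all genes. Its chi-square per gene, a measure of the difference between 2 libraries, was 10.65 to 11.55 with the other DR mice. Among those it was 5.04 to 7.58, and pairs of AL mice reached 10.8. AL replicate 1 was the highest of its diet for 8 members as well. Results that rest on DR replicate 1 are given with and without it. Nothing in the labels ties replicate numbers to a shared litter, cage or day, and whether mice shared these is not known. The p-values measure the spread between these mice and treat them as independent. The paper reports that core clock genes changed over its window of dissection times in AL and DR mice. Dissection time was not part of the fits.

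As counted, Tubb4a had the highest level per kilobase of the 10 genes in cerebellar cortex. This β isotype is known from neurons and myelinating oligodendrocytes, and its mutations cause a hypomyelinating leukodystrophy. Per kilobase of exon, its level averaged 526 CPM per kilobase over the 12 mice, from 485 to 567. Tuba1b (195, from 162 to 219.7) and Tuba1a (169.6, from 154 to 203) followed, then Actb (141, from 133 to 155), all in CPM per kilobase. Tuba4a (90.6), Actg1 (85.3), Tubb3 (73.3), Tubb2a (70.1), Tubb5 (59.1) and Tubb2b (52.1) formed the lower group. The 12 mice separated only Tubb4a from Tuba1b and Actb from Tuba4a, and each other pair of neighbours in this order overlapped. The length used here counts all annotated exons of a gene, 2679 bases for Actb and 3327 for Tubb5. The transcripts from which their coding sequences were read have 1920 and 2649 bases. The order of genes close in level, and which neighbours separate, thus depends on the length chosen, and other lengths were not tested. The whole order also depends on how reads in shared windows were counted, which was not given. Of the windows, 57.9% of Tuba1b, 54.7% of Tuba1a and 45.7% of Tuba4a occurred in another gene, and none of Tubb4a or Actb. By mean level per kilobase, the members stood between the 96.3 and the 99.9 percentile of the genes expressed across the 12 libraries.

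**Figure D1:**
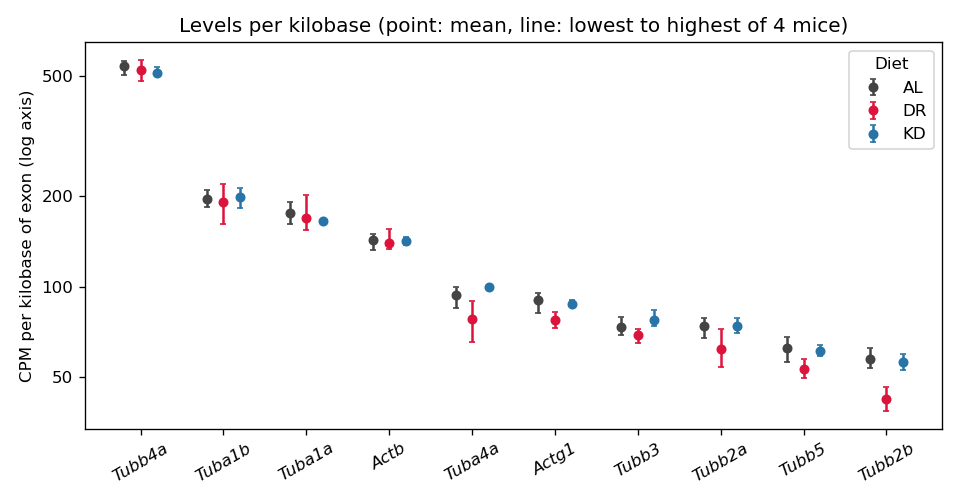
Level of each gene in CPM per kilobase of exon on a log axis, with the mean as a point and the lowest and highest of 4 mice as a line for AL, DR and KD. Tubb4a, at 526 CPM per kilobase over the 12 mice, stands above all others, and Tubb2b is lowest, with its DR range below the other diets.

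On DR, Tubb2b fell and no member rose. Tubb2b encodes a β-tubulin isotype of the developing and adult brain whose mutations disturb neuronal migration. All 10 genes had a negative estimate against AL, with a median log2 fold change of -0.15, while 49% of all 19052 genes tested had a negative estimate and their median was 0.00361. The other 9 did not pass the test, and their estimates ranged from -0.26 for Tuba4a to -0.03 for Actb. Bulk tissue cannot tell fewer cells of a type from less RNA per cell.

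Tubb2b stood at 129, 144, 130.4 and 124 CPM in AL replicates 1 to 4 and at 107, 88.5, 89.7 and 105 CPM in the DR mice. Every DR mouse was below every AL mouse, as was the case for 5.64% of the genes tested. The mean was 132 ± 8.63 CPM on AL and 97.6 ± 9.86 on DR (SD, n = 4), and Tubb2b fell by 25.9%, a log2 fold change of -0.43 with SE 0.07 and a 95% interval from -0.57 to -0.29 (adjusted p = 0.00319, quasi-likelihood test of edgeR, Benjamini-Hochberg). Thus 1 of the 10 members was called, against 3.06% of the genes tested, or 1.74% when lower calls alone are counted. Leaving out any single mouse kept Tubb2b called, with an adjusted p from 0.00395 to 0.0144 in the same edgeR test. Without DR replicate 1, Tubb2a was called as well.

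Of the other members, 4 had an unadjusted p under 0.05 without passing the adjustment, so that 5 of 10 members had a lower estimate at that level, against 8.98% of all genes tested. Tubb2a, the paralog of Tubb2b, stood at 126, 125, 109 and 116 CPM on AL and at 116, 87.5, 90.7 and 106 on DR. These ranges overlapped through DR replicate 1, and the log2 fold change was -0.25 (95% interval -0.42 to -0.08, edgeR adjusted p = 0.104). Tubb5, the widely expressed class I β-tubulin, averaged 208 ± 16.6 CPM on AL and 178 ± 12.7 on DR (SD, n = 4), with a log2 fold change of -0.23 (-0.36 to -0.09, edgeR adjusted p = 0.0625). Tuba4a, the α isotype of mature neurons and platelets that lacks the terminal tyrosine codon of other α-tubulins, stood at 370.1, 345, 314 and 359 CPM on AL and at 317, 242, 269 and 332 on DR. Its log2 fold change was -0.26 (-0.44 to -0.08, edgeR adjusted p = 0.114), and DR replicates 1 and 4 lay within the AL range. Actg1 averaged 239.9 ± 17.9 CPM on AL and 207 ± 12.0 on DR, a log2 fold change of -0.21 (-0.34 to -0.09, edgeR adjusted p = 0.0595).

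The remaining 5 members gave estimates nearer to 0. Tubb3, the neuron-specific β isotype, averaged 137 ± 9.35 CPM on AL and 129 ± 6.11 on DR, and its interval ran from -0.21 to 0.02 on the log2 scale. For Tubb4a, the member with the highest level as counted, the means were 1204 ± 54.4 and 1166 ± 82.6 CPM and the interval ran from -0.16 to 0.07. Tuba1a, the main α isotype of postmitotic neurons, and Tuba1b, its widely expressed copy, had intervals from -0.22 to 0.11 and from -0.20 to 0.12. Actb, often used as a reference gene, stood at 383, 392, 401 and 355 CPM on AL and at 416, 357, 361 and 364 on DR, with an interval from -0.15 to 0.09. In edgeR's quasi-likelihood test, the adjusted p of these 5 ran from 0.392 to 0.840.

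**Figure D2:**
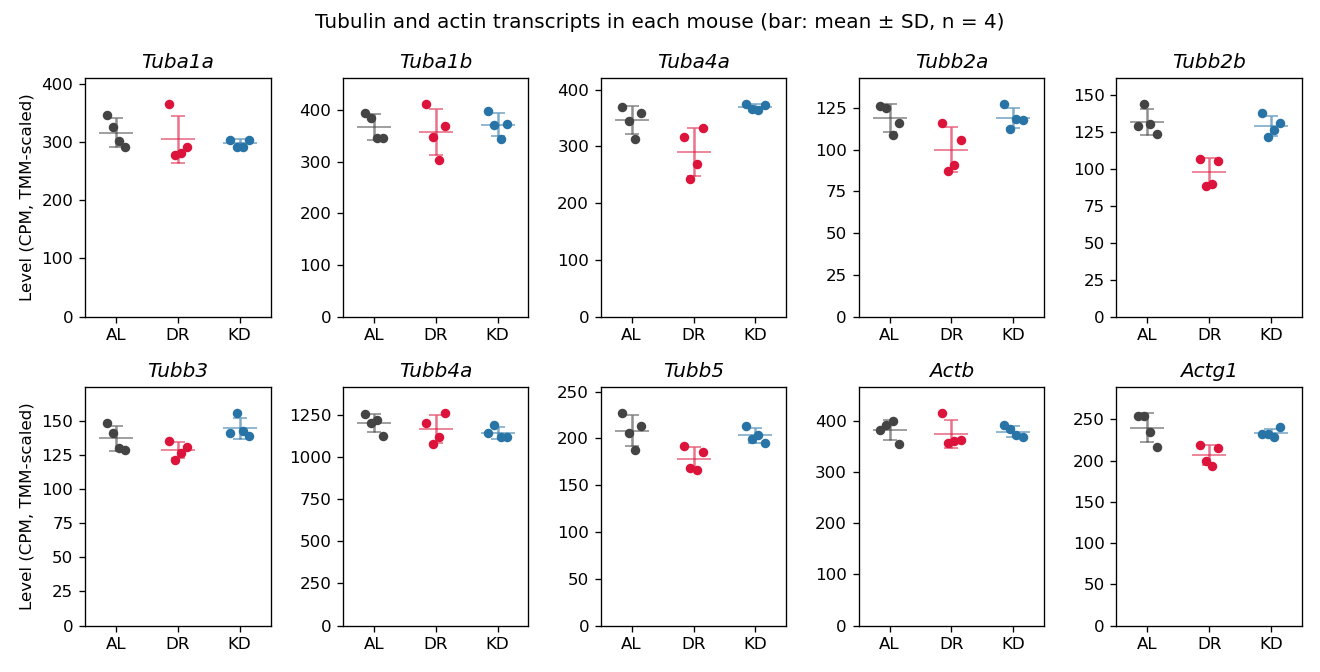
CPM of each gene in each mouse by diet, with the mean and SD of 4 mice as a bar. The 4 DR mice lie below all AL and KD mice for Tubb2b, between 88.5 and 107 CPM, and DR replicate 1 is the high point of Tuba1a (365) and Actb (416).

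On KD, no member passed the test against AL. Estimates ranged from -0.09 for Tuba1a to 0.09 for Tuba4a on the log2 scale, and the 95% intervals of all 10 lay between -0.19 and 0.19. None of the 10 had an unadjusted p under 0.05, and 0 of the 19036 genes tested were called (0%) by edgeR's quasi-likelihood test. Across those genes, 928 (4.87%) had an unadjusted p under 0.05, and DESeq2 called 10 genes, none of them a member. Tubb2b stood at 138, 121, 126 and 131 CPM on KD, within the AL range apart from the mouse at 121, with a log2 fold change of -0.03 (-0.14 to 0.08). This comparison shares its AL mice with that of DR.

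Between KD and DR, 4 members were higher on KD and none was lower. These were Tubb2b, Tuba4a, Tubb5 and Actg1, so β-tubulin, α-tubulin and actin each had a member among them. The 4 of 10 compare with 2.43% of the 19087 genes tested that were called higher and with 4.94% called in either direction. The median log2 fold change of the 10 was 0.17, against -0.00239 over all genes tested, and the comparison uses the same DR and KD mice as those already given.

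Tubb2b averaged 129 ± 6.92 CPM on KD and was 32.2% higher than on DR, a log2 fold change of 0.40 (SE 0.06, 95% interval 0.27 to 0.54, edgeR adjusted p = 0.00155). Tuba4a stood at 375, 366, 365 and 373 CPM on KD, against 242 to 332 on DR, and was 27.4% higher (log2 fold change 0.35, SE 0.07, interval 0.19 to 0.51, edgeR adjusted p = 0.0127). The KD mice were close together for this gene, with an SD of 5.09 CPM against 41.8 on DR. Tubb5 stood at 213, 199.8, 204 and 196 CPM on KD and at 192, 169, 166 and 186 on DR, a log2 fold change of 0.19 (0.08 to 0.30, edgeR adjusted p = 0.0425). Actg1 stood at 233, 232, 228 and 241 CPM on KD and at 219, 199.9, 194 and 215 on DR, a log2 fold change of 0.17 (0.08 to 0.27, edgeR adjusted p = 0.0403). In all 4 genes every KD mouse was above every DR mouse.

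Tubb3 also did not overlap, with 139 to 156 CPM on KD and 121 to 136 on DR, but missed the threshold (log2 fold change 0.17, edgeR adjusted p = 0.0581). Without overlap, 5 of 10 members were higher on KD, against 6.03% of all genes tested, and 6 of 10 were higher at an unadjusted p under 0.05, against 9.29%. Tubb2a gave 0.25 (0.09 to 0.41, edgeR adjusted p = 0.0614), and Tuba1a, Tuba1b, Tubb4a and Actb lay between -0.03 and 0.05. Leaving out single mice kept Tubb2b and Tuba4a called each time, while Tubb5 and Actg1 were called only without DR replicate 1 or without DR replicate 4. Without DR replicate 1, 6 members were called, Tubb2a and Tubb3 being the additional ones. Under normalization by library size alone, or with all 12 libraries in one fit, 2 members were called, Tuba4a and Tubb2b.

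**Figure D3:**
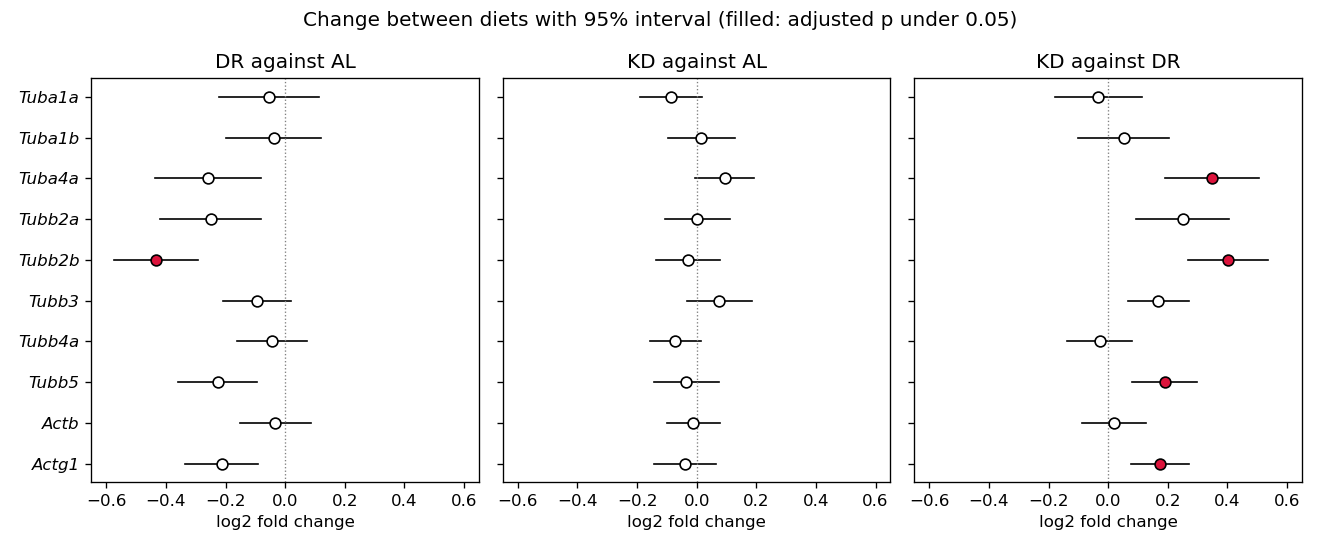
Log2 fold change of each gene (horizontal axis) with its 95% interval for DR against AL, KD against AL and KD against DR, with filled points for an adjusted p under 0.05. Tubb2b is filled at -0.43 for DR against AL, none is filled for KD against AL, and Tubb2b, Tuba4a, Tubb5 and Actg1 are filled for KD against DR at 0.40, 0.35, 0.19 and 0.17.

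The annotated exons of Tuba4a and Stk16 overlap, and whether counted reads did was not tested. Stk16 itself gave a log2 fold change of 0.10 on DR against AL (edgeR adjusted p = 0.623) and of -0.10 on KD against DR (edgeR adjusted p = 0.576), with signs opposite to those of Tuba4a.

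The summed level of the members of each family overlapped between diets, while the shares of some isoforms did not. Sums and shares cover the 10 members alone and leave out Tuba1c, Tuba8, Tubb4b and Tubb6. Per kilobase, the summed α members averaged 465, 438 and 463 CPM per kilobase on AL, DR and KD, the β members 808, 751 and 782, and the actins 233, 218 and 229, and each of these sums overlapped between every pair of diets. Of the summed level of the 5 β members, Tubb4a made up 66.9 ± 1.20% on AL, 69.7 ± 0.914% on DR and 65.6 ± 0.846% on KD. Tubb2b made up 7.11 ± 0.416% on AL, 5.66 ± 0.192% on DR and 7.20 ± 0.443% on KD (SD, n = 4), and the DR mice lay below all others. Tubb3 made up 9.10% on AL, 9.20% on DR and 9.91% on KD, where the 4 KD mice lay above all AL and DR mice. Of the 3 α members, Tuba4a made up 20.2 ± 1.18%, 17.9 ± 1.76% and 21.6 ± 0.491% per kilobase on AL, DR and KD, with KD and DR mice apart. Without division by exon length, its share of the counts was 33.7%, 30.4% and 35.6%. Actg1 made up 38.7%, 35.8% and 38.3% of the summed level of Actb and Actg1, again with KD and DR apart.

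Ratios between isoforms of a family within a library do not depend on the library scaling. The log2 ratio of Tubb2b to its paralog Tubb2a was 0.15 ± 0.10 on AL, -0.03 ± 0.06 on DR and 0.11 ± 0.03 on KD. The DR mice, from -0.12 to 0.02, lay below all AL mice (0.03 to 0.26) and all KD mice (0.09 to 0.15). Relative to Tubb4a, the log2 ratio of Tubb2b was -3.19 on AL, -3.58 on DR and -3.15 on KD, with DR again apart from both. The log2 ratio of Tuba4a to Tuba1a was 0.14, -0.07 and 0.31, that of Tubb5 to Tubb4a -2.53, -2.71 and -2.49, and that of Actg1 to Actb -0.68, -0.85 and -0.70. For these 3 ratios the KD and DR mice did not overlap, while AL overlapped both.

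**Figure D4:**
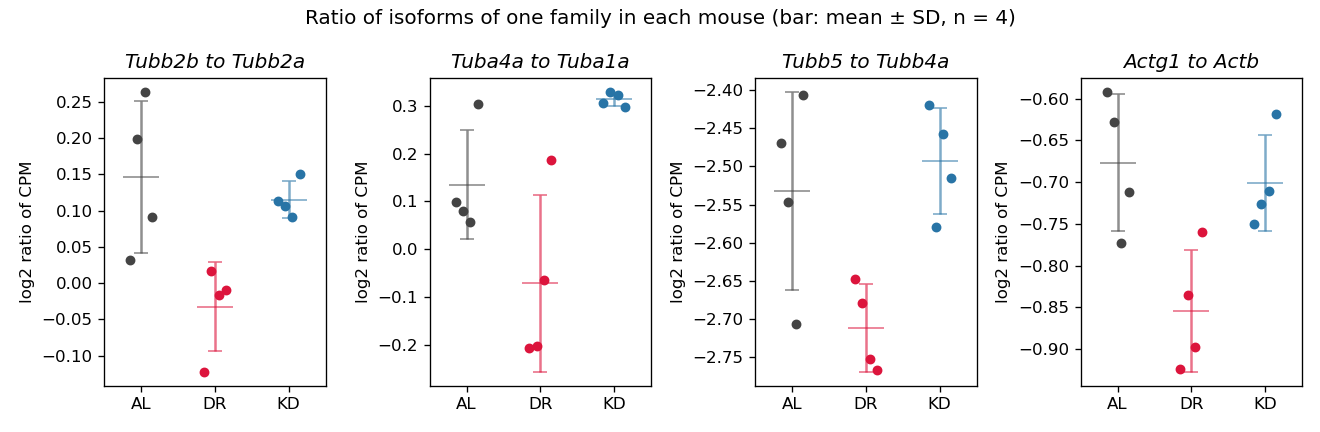
Log2 ratio of CPM between isoforms of a family in each mouse, with mean and SD of 4 mice. The DR mice lie lowest for Tubb2b to Tubb2a, from -0.12 to 0.02, and the KD mice lie close together for Tuba4a to Tuba1a, around 0.31.

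The members varied together between mice of the same diet. DR replicates 2 and 3 were below the mean over the 12 mice in 10 of 10 genes, with median deviations of -0.17 and -0.23 on the log2 scale. DR replicates 1 and 4 deviated by a median of 0.01 and -0.06, so the DR mice covered a wider range than the KD mice, whose medians lay between 0.03 and 0.09. AL replicates 1 and 2 were above the mean in 10 of 10 genes, by medians of 0.14 and 0.08, and AL replicates 3 and 4 were at -0.03 and -0.06. Counts over the 10 members are therefore not counts of independent genes.

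**Figure D5:**
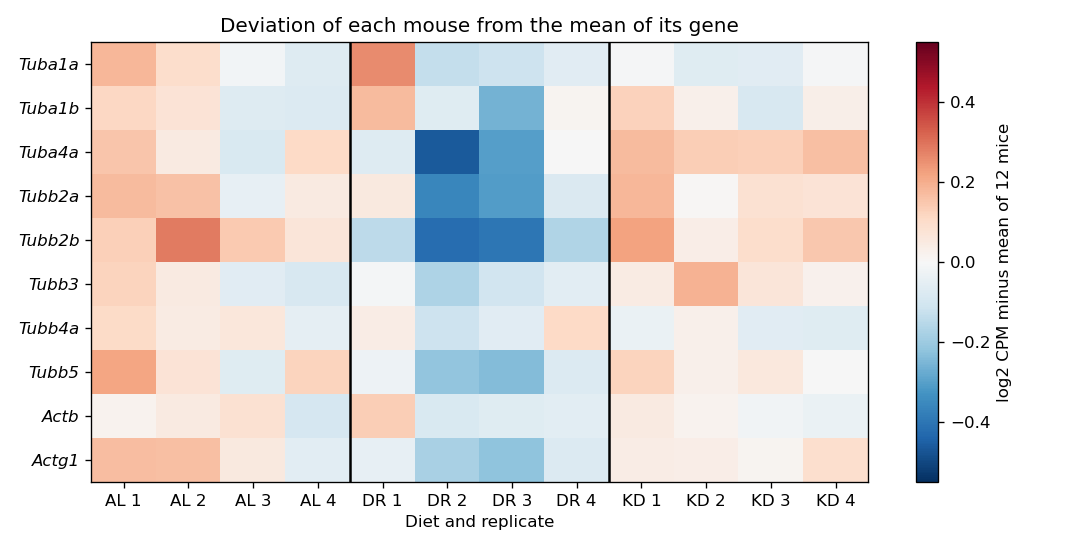
Deviation of log2 CPM from the gene's mean over 12 mice, with genes in rows and mice in columns by diet and red above and blue below the mean. DR replicates 2 and 3 are below the mean in all 10 rows, and DR replicate 1 is above it in 5 rows, among them Tuba1a, Tuba1b and Actb.

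As a description over the 12 libraries, which share their diets and scaling, the Pearson correlation of log2 CPM was highest between Tubb2a and Tubb5 (r = 0.93), Tuba4a and Tubb2a (0.91), Tubb2b and Actg1 (0.91) and Tubb2a and Tubb2b (0.90). It was lowest between Tuba4a and Actb (0.26). After the diet means were removed, the value for Tubb2a with Tubb2b was 0.84 and that for Tuba4a with Actb 0.21. The genes most like each member were picked from 10063 genes of at least 10 CPM that are not members, so high values come in part from that choice. Those most like Tubb2b over the same libraries were Drp2 (0.97) and Cmtm5 (0.96), and those most like Tuba4a were Car8 (0.95) and Kcna6 (0.94). After the diet means were removed, these 4 values were 0.84, 0.88, 0.94 and 0.84. Those most like Tubb2a over the 12 libraries were S100b (0.96) and 1500009C09Rik (0.96). For Tubb5 they were Car7 (0.95) and Pfn2 (0.94), and for Actg1 they were Pltp (0.94) and Dap (0.93). For Tubb4a they were Miga2 (0.87) and Trabd2b (0.86), and for Actb they were Gm42504 (0.87) and Map6d1 (0.87). The remaining members had Zfp869 (0.95) and Pla2g7 (0.94) for Tuba1a, Cep19 (0.93) and Ap2m1 (0.92) for Tuba1b, and Sult4a1 (0.91) and Cybc1 (0.89) for Tubb3.

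The other tubulins and actins were a mixed set. Of 8 further α- and β-tubulins, 4 were tested and 1 was lower on DR: Tuba8, a minor α isotype, averaged 59.2 ± 3.59 CPM on AL, 46.8 ± 6.25 on DR and 60.1 ± 2.23 on KD. Its log2 fold change was -0.34 on DR against AL (edgeR adjusted p = 0.0323) and 0.36 on KD against DR (edgeR adjusted p = 0.00933). Tubb4b, a broadly expressed β isotype, averaged 146 CPM on AL, 127 on DR and 153 on KD, with log2 fold changes of -0.21 and 0.27 in those 2 comparisons that missed the threshold (edgeR adjusted p = 0.254 and 0.0551). Tuba1c and Tubb6 were not called, and Tuba3a, Tuba3b, Tubal3 and Tubb1 had no more than 11 reads over the 12 libraries. Among the actins other than Actb and Actg1, Actbl2, a β-actin-like gene, averaged 0.706 ± 0.364 CPM on AL, 1.64 ± 0.0486 on DR and 0.961 ± 0.101 on KD. It rose on DR against AL (log2 fold change 1.19, edgeR adjusted p = 0.0387) and was lower on KD than on DR (-0.77, edgeR adjusted p = 0.0170). Acta1, Acta2 and Actc1 were not called, and Actg2 did not pass the filter on DR against AL. The estimates of these actins on DR against AL ran from -0.69 to 1.19, and Actc1 averaged 1.87 CPM on AL, 1.16 on DR and 2.19 on KD.

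Genes that make, fold, modify, bind or regulate these polymers were also tested. Over 13 lists of 157 such genes, 151 were tested, and 2 were higher and 1 lower on DR against AL, 0 were called on KD against AL, and 5 were higher and 2 lower on KD against DR, these counts including Tuba8 and Actbl2. Over all genes tested, 3.06%, 0% and 4.94% were called in these comparisons. Tppp3, a tubulin polymerization promoting protein, rose on DR against AL (log2 fold change 0.32, edgeR adjusted p = 0.0114) and was lower on KD than on DR (-0.25, edgeR adjusted p = 0.0127). Higher on KD than on DR were Stmn1, which sequesters tubulin dimers (0.19, edgeR adjusted p = 0.00910), Ttll5, a tubulin polyglutamylase (0.24, edgeR adjusted p = 0.0265), Vash1, a tubulin detyrosinase (0.24, edgeR adjusted p = 0.0411), and Cnn2, a calponin of actin filaments (0.40, edgeR adjusted p = 0.0395).

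None of the genes that fold and meter tubulin and actin was called in the 3 comparisons, which for lists of this size is near the share over all genes tested. They comprise 14 subunits of the CCT chaperonin and prefoldin, 7 tubulin folding cofactors, 10 genes of the γ-tubulin ring complex that nucleates microtubules, and the autoregulation genes Ttc5 and Scaper. Among them, Ttc5, which triggers decay of tubulin mRNA, had the smallest p of its list, with a log2 fold change of 0.12 on DR against AL (edgeR adjusted p = 0.196). The γ-tubulin list had a median log2 fold change of 0.10 on DR against AL, and 4 of its 10 genes were higher at an unadjusted p under 0.05, against 9.02% of all genes tested. The 12 actin crosslinkers and tropomyosins, the filament bundlers, all had negative estimates on DR against AL with a median of -0.12, and none was called. Srf, the transcription factor that acts with the MRTF coactivators, had a log2 fold change of -0.21 on DR against AL (edgeR adjusted p = 0.0989). The list of 11 genes to which Srf belongs, with the MRTF coactivators and targets, was mixed in this comparison. Its estimates were positive for 6 genes and negative for 5, from -0.39 to 0.24 with a median of 0.0096, and none was called.

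Markers of cerebellar cell types were measured beside these changes, and their part in them was not tested. The summed level of 6 Purkinje cell markers, all detected in every library, was 6677 to 7142 CPM on AL, 5612 to 6474 on DR and 6584 to 6767 on KD, so that the DR mice lay below all others, and 2 of the 6 were called lower on DR against AL, where 1.74% of all genes were. The 5 markers of Bergmann glia and astrocytes summed to 591 to 664 CPM on AL, 506 to 584.5 on DR and 575 to 637 on KD, with 2 of 5 called lower on DR against AL. On KD against DR, 2 markers of each of these lists were called higher. The 6 markers of mature oligodendrocytes summed to 2098 to 2705 CPM on AL, 1970.2 to 2459 on DR and 2328 to 2534 on KD, and overlapped between all diets, with 1 of 6 called lower on DR against AL and 2 of 6 called higher on KD than on DR, where 2.43% of all genes were. The 4 markers of oligodendrocyte precursors were at 47.9 to 60.4 CPM on AL, 39.1 to 48.1 on DR and 50.6 to 56.2 on KD, apart between KD and DR, and 1 of 4 was called lower on DR against AL and 1 higher on KD than on DR. Sums for granule cells, the most numerous neurons of the tissue, lay between 4546 and 5039 CPM in all 12 libraries and overlapped between diets, with 1 of 5 called higher and 1 lower on KD against DR. Markers of interneurons, immature neurons, microglia, endothelium, mural cells and choroid plexus also overlapped between all diets, and erythroid transcripts were apart between KD and AL. Choroid plexus markers summed to 0.942 to 9.46 CPM, with means of 1.69 on AL, 1.6 on DR and 4.55 on KD, and 1 of the 2 tested was called higher on KD than on DR.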

How the data were processed

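Poly(A) RNA of 12 cerebellar cortex samples was sequenced. Per the labels and methods, the authors trimmed reads with Trimmomatic (version 0.39), aligned them to GRCm38.p6 with STAR (version 2.7.0f) and assigned them to GENCODE genes with featureCounts of Subread (version 1.6.4), and deposited raw counts per gene with its exonic length. The strand and multi-mapping settings were not given in the sources used here. Gene names came from GENCODE on GRCm38 and matched 54723 of 54752 genes. Levels are CPM on TMM-scaled library sizes over 12 libraries, with a prior count of 2 on the log2 scale where correlated. Each pair of diets was tested on its own 8 libraries with edgeR (version 4.0.16, R 4.3.3) glmQLFit and glmQLFTest after filterByExpr (minimum count 10, minimum total 15) and TMM, with Benjamini-Hochberg adjustment over all genes tested and a threshold of 0.05. Intervals are 95% intervals of the fit. Alternatives were DESeq2 (version 1.42.0), other size factors, other filters, shares without division by exon length, a fit of all 12 libraries and leaving out each mouse. The edgeR script was tested on simulated counts of 18814 genes for DR against AL, 18797 for KD against AL and 18840 for KD against DR. Only genes of at least 10 CPM were changed, and noise was independent between genes, unlike the shared variation seen among the members. Of genes changed 1.25-fold it recovered 71 of 101 (70.3%), 74 of 93 (79.6%) and 82 of 99 (82.8%) in these comparisons. Of genes changed 1.5-fold it recovered 100% in each. Unchanged genes called numbered 11, 9 and 8. Replicate numbers follow accession order, since the labels number mice through the series. Members and gene lists were chosen with earlier results of these data known. Named genes are all members, all other α- and β-tubulins and actins, and from each other list up to 3 called genes. For some lists with none called in a comparison, the gene of smallest p is named. The 2 genes most like each member by Pearson correlation are also named. Coding sequences and windows were taken from GENCODE transcripts, and promoters from RefSeq, matched by symbol for 8 of 10 members, all but Tubb2b and Actb.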

Additional observations from a re-analysis of the deposited data

Results flagged for a closer look

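Of 48 groups of 4 mice examined for a mouse far from the others, 3 had one, and chance alone gives about 1 in 20, or 2.4. DR replicate 1 had 365 CPM of Tuba1a against 278 to 292 in the other DR mice, and 416 CPM of Actb against 357 to 364. AL replicate 4 had a log2 ratio of Tuba4a to Tuba1a of 0.304 against 0.0575 to 0.0990 in the other AL mice.

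The change from AL differed between KD and DR for 4 members, as tested by the direct comparison of KD with DR. The difference of the changes, KD minus DR on the log2 scale, was 0.35 for Tuba4a, 0.4 for Tubb2b, 0.19 for Tubb5 and 0.17 for Actg1, with edgeR adjusted p of 0.0127, 0.00155, 0.0425 and 0.0403. The AL mice are common to both changes and drop out of the difference, so this restates the KD against DR results and adds no further test. Tubb5 and Actg1 were not called under library size scaling or in the fit of 12 libraries. Each was called in 2 of the 8 fits that left out a mouse.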

How the results depend on the processing

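For DR against AL, 583 genes and 1 member were called. DESeq2 called 1012 genes and 5 members (Tuba4a, Tubb2a, Tubb2b, Tubb5 and Actg1), testing without a filter on low counts called 1258 genes and the same 5 members, and a fit of all 12 libraries called 3 members (Tubb2b, Tubb5 and Actg1). Scaling by library size alone called 565 genes, 57% of them higher against 43.2% in the reported fit, with Tubb2b still called. Leaving out single mice gave 235 genes (without DR replicate 3) to 712 (without AL replicate 3) and 1 to 2 members. For KD against AL, 0 genes were called, against 10 by DESeq2, 118 without a filter and 0 to 6 with single mice left out (6 without AL replicate 1), and no member was called under any of these. For KD against DR, 942 genes and 4 members were called, 1503 genes without a filter, 2 members (Tuba4a and Tubb2b) under library size scaling and in the fit of 12 libraries, and 467 (without KD replicate 3) to 946 genes (without DR replicate 4) and 2 to 6 members with single mice left out. DESeq2 and testing without a filter each called 6 members. Tubb2b was called under every setting for both DR comparisons, and Tuba4a for KD against DR. The cause of the differences was not tested. Without division by exon length, 18 of the 30 isoform shares moved by more than 1 SD, those of Tuba1a, Tuba1b, Tuba4a, Tubb2a, Tubb3 and Tubb5.

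Signs changed only for estimates near 0 that were not called. With single mice left out, the estimate for DR against AL ran from -0.11 to 0.031 for Tuba1b. For KD against AL it ran from -0.021 to 0.052 for Tuba1b, -0.039 to 0.031 for Tubb2a, -0.062 to 0.014 for Tubb2b, -0.082 to 0.0084 for Tubb5 and -0.046 to 0.012 for Actb. For KD against DR it ran from -0.073 to 0.068 for Tuba1a, -0.019 to 0.13 for Tuba1b, -0.064 to 0.011 for Tubb4a and -0.0034 to 0.074 for Actb, which was -0.0011 under library size scaling. No paired analysis was possible because the numbers in the labels are not shared between diets.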
